A study of Homo sapiens with 6 samples.

Results

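The genes examined encode the machinery of V(D)J recombination, the cut-and-join reaction that assembles immunoglobulin and T cell receptor genes. The 10 genes were chosen by symbol among the 30017 genes of the count table. They comprise 3 lymphoid recombinase genes (*RAG1*, *RAG2* and *DNTT*) and 7 general end joining genes (*XRCC5*, *XRCC6*, *PRKDC*, *DCLRE1C*, *LIG4*, *XRCC4* and *NHEJ1*). The libraries come from BLaER1-CTCF-mAID cells, a subclone of a B cell leukemia line that is turned into induced macrophages (iMacs) by CEBPA, an exogenous transcription factor activated with estradiol, in medium with IL-3 and CSF-1. In every library, the CTCF protein carries an auxin-inducible degron (AID). The 3 groups of 2 biological replicates were cells cultured without the factors (0 h), cells at 96 h of conversion without auxin (96 h control), and cells at 96 h of conversion that received the auxin indole-3-acetic acid (IAA) along with the factors (96 h CTCF-depleted). All groups derive from 1 subclone, and no cells without the degron were given IAA in these libraries, so that an effect of IAA itself and of CTCF loss cannot be told apart. In total RNA depleted of ribosomal RNA, 9273470 to 12718780 counts were obtained per library. Genes were called lower or higher if the adjusted p was below 0.01 and the log2 fold change was beyond 0.6 in either direction. P-values are from edgeR's quasi-likelihood test, adjusted over the 14758 genes that passed a filter on low counts. All 10 genes passed the filter, and each had at least 10 counts in every library.

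*RAG1* and *RAG2* form the endonuclease that cuts DNA at the recombination signals beside V, D and J segments, and both are restricted to developing B and T cells. *DNTT* encodes terminal deoxynucleotidyl transferase (TdT), which adds bases without a template to the cut ends. The ends are then joined by nonhomologous end joining, which all cell types use on broken DNA: Ku (*XRCC6* and *XRCC5*) holds the ends, DNA-PKcs (*PRKDC*) binds Ku, Artemis (*DCLRE1C*) opens the hairpins left by RAG, and LIG4 with XRCC4 and XLF (*NHEJ1*) seals the break. The comparisons ask how the lymphoid-restricted and the general genes of this reaction behaved when B leukemia cells became iMacs, and whether this differed when CTCF was depleted.

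Cells at 0 h expressed B cell markers, and cells at 96 h expressed macrophage markers. In both conditions at 96 h, all 12 B cell markers examined were called lower and all 12 macrophage markers higher than at 0 h. The B cell markers summed to 3404 and 3384 CPM (counts divided by the TMM-scaled library size) at 0 h, 480 and 490 CPM in control libraries, and 489 and 497 CPM in those with CTCF depletion. The macrophage markers summed to 47.4 and 44.7 CPM at 0 h and to between 5074 and 5521 CPM in the 4 libraries at 96 h. Of 8 T cell markers, which could report another recombinase-expressing lineage, 6 or 7 were at 0 counts at 0 h, and they summed to 41 to 77 counts per library at 96 h. *CD2* alone passed the filter, with 0 counts at 0 h, and its difference between the conditions at 96 h (0.51) was not called. *LYZ*, the lysozyme gene, rose from 0.380 CPM at 0 h to 4527 CPM in control cells, and the scavenger receptor gene *CD163* had 0 counts at 0 h and 52.7 CPM in control cells. Between the conditions at 96 h, the macrophage markers *MRC1* (log2 fold change -1.33) and *MPEG1* (-1.11) were lower and *ITGAM* (1.15) was higher in CTCF-depleted cells. These are bulk libraries, in which fewer cells of a type and less RNA per cell cannot be told apart.

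The start regions of *RAG2* and *DNTT* are shown because both are recombinase genes, which fell together. The 250 bases of hg38 before the start of the GENCODE canonical transcript are printed 5′ to 3′ on the gene's strand for *RAG2* (chr11:36598237-36598486, minus strand) and *DNTT* (chr10:96304184-96304433, plus strand). Capitals mark the E-box CANNTG, bound by basic helix-loop-helix factors, and CCAAT, on either strand. TATAAA and GGGCGG (the GC box) were searched as well and had no match in these bases.
RAG2: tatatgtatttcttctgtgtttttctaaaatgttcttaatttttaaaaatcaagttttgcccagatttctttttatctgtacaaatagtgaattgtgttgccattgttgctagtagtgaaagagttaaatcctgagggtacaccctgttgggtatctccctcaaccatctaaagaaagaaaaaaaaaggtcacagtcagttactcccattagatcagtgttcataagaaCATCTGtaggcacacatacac
DNTT: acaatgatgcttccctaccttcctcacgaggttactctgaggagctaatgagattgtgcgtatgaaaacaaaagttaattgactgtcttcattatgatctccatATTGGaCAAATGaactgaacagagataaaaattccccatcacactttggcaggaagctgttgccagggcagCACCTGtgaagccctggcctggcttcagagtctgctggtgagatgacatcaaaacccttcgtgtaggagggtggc

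These windows differed in composition from those of the end joining genes. Within 300 bases (the 250 printed and 50 after the start), *RAG2* held 0 and *DNTT* 3 CG dinucleotides, against 19 (*NHEJ1*) to 35 (*XRCC5*) in the end joining genes. The median over 35116 start windows of the same length from RefSeq (GRCh38.p14) was 14, with quartiles of 4 and 28. The GC content was 36.7% at *RAG2* and 49.3% at *DNTT*, and the end joining genes lay between 60.7% and 67.3%. Of all RefSeq windows, 68.7% held CANNTG, 34.6% CCAAT, 11.5% TATAAA and 44.95% GGGCGG. The E-box occurred once at *RAG2* and 3 times at *DNTT*, there including a match after the start, and also at *LIG4* (3 times), *XRCC6* and *DCLRE1C* (2 times each). Its form CAGGTG, which is the form favored by E proteins, occurred once at *DNTT*, where it reads CACCTG on the printed strand, once at *DCLRE1C* and in 20.6% of all windows. GGGCGG was found in 5 of the 7 end joining windows, all but those of *PRKDC* and *LIG4*. Also searched were the C/EBP form TTGCNNAA, the FOXO form TGTTTAC, the CTCF core AGGGGGC and the RUNX form TGTGGT. None matched at *RAG2* or *DNTT*. TTGCNNAA occurred at *XRCC6* and *XRCC4*, AGGGGGC at *XRCC6* (2 times) and TGTGGT at *XRCC5*. In the order searched, 10.5%, 3.42%, 14.4% and 13.1% of all windows held these forms. These matches describe the letters only.

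At 0 h, *DNTT* and *RAG1* were among the most abundant transcripts. By CPM, *DNTT* ranked 124, *RAG1* ranked 153 and *RAG2* ranked 1203 from the top of 14758 genes, and *PRKDC* ranked 21. Per kilobase of the canonical transcript, *DNTT* was the highest of the 10 at 368 CPM per kb, followed by *XRCC6* and *XRCC5* at 213 CPM per kb each, whose libraries overlapped. *PRKDC* (129), *RAG1* (96.8) and *RAG2* (69.2) came next on the same scale. *DCLRE1C* (10.7), *XRCC4* (7.69), *LIG4* (6.26) and *NHEJ1* (2.24) were lower, and the libraries of none of these neighbors in the order overlapped. At 96 h in control cells, *XRCC5* (144) and *XRCC6* (136) led the order, *DNTT* (5.03) lay above *LIG4* (3.96), and *RAG1* (1.19) and *RAG2* (0.659 CPM per kb) were at its lower end, where *RAG1* overlapped *NHEJ1* (1.19).

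**Figure D1:**
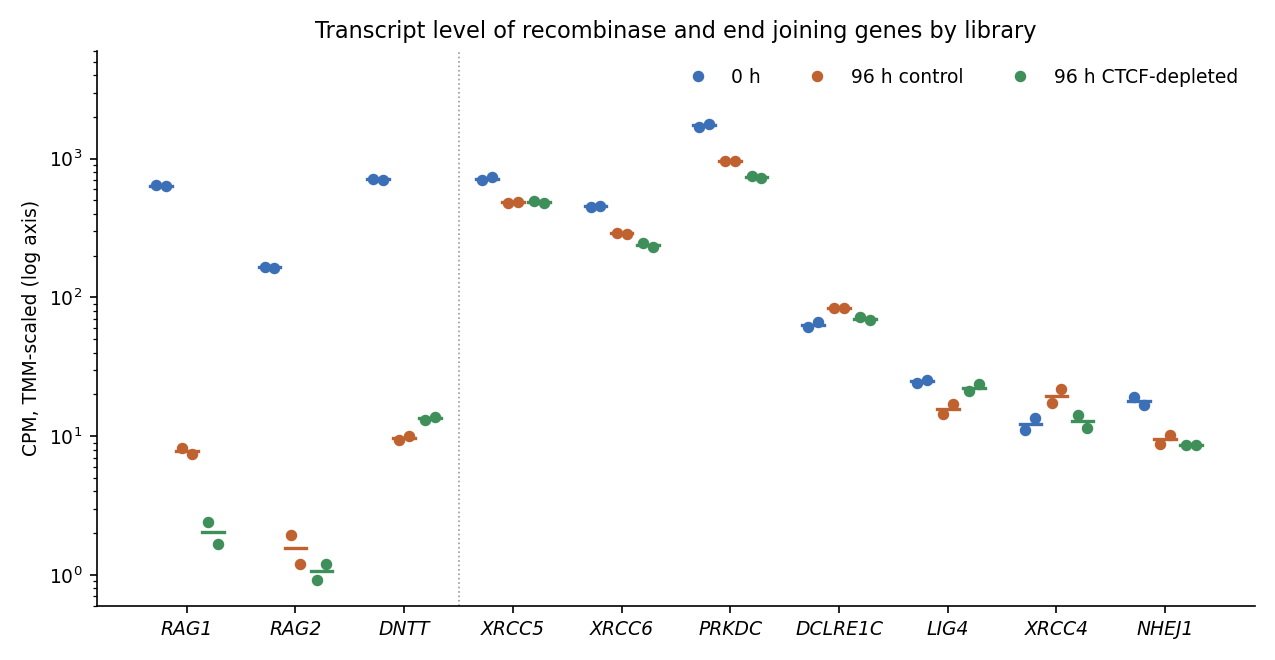
Transcript level of the 10 genes in each library, in TMM-scaled CPM on a log axis, with points for the 2 libraries of each group and bars for their means. The 3 genes left of the dotted line fell from 165–712 CPM at 0 h to 1.06–13.5 CPM at 96 h, whereas *XRCC5*, *XRCC6* and *PRKDC* stayed above 200 CPM.

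*RAG1* (ENSG00000166349.11, chr11:36510372-36593156, plus strand, hg38), the catalytic subunit of the endonuclease, fell steeply in conversion and was lower still in CTCF-depleted cells. It had 6245 and 8424 counts at 0 h, 93 and 80 in control and 26 and 18 in CTCF-depleted libraries. The 3 groups did not overlap. The level was 638 ± 8.74 CPM at 0 h, 7.81 ± 0.565 CPM in control cells and, with CTCF depletion, 2.03 ± 0.530 CPM (SD, n = 2 per group), so that 1.22% and 0.319% of the 0 h level remained. Relative to 0 h, the log2 fold change of control cells was -6.35 (adjusted p = 7.81e-57, edgeR's quasi-likelihood test), and that of CTCF-depleted cells was -8.29 (adjusted p = 7.54e-58). Leaving out 1 library gave -6.46 to -6.27 and -8.58 to -8.01. Both comparisons use the same 0 h libraries. CTCF-depleted cells had 3.84-fold less *RAG1* RNA than control cells, or -1.94 on the log2 scale (standard error 0.20, 95% interval -2.34 to -1.54, adjusted p = 6.18e-12 by the same test). This call was kept under all 16 alternatives tried, with values between -2.19 and -1.66.

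*RAG2* (ENSG00000175097.9; chr11:36575574-36598279, minus strand), the subunit that reads histone H3 methylated at lysine 4, fell to 0.952% of its 0 h level in control and 0.643% in CTCF-depleted cells, but its counts at 96 h were too low to resolve the 2 conditions. It had 1610 and 2190 counts at 0 h, 22 and 13 in control and 10 and 13 in CTCF-depleted libraries. Every library at 96 h lay below those at 0 h, whereas 1 library of each condition at 96 h held 13 counts. The level was 165 ± 1.28 CPM at 0 h, 1.57 ± 0.522 CPM in control cells and, with CTCF depletion, 1.06 ± 0.192 CPM (SD, n = 2 per group). Relative to 0 h, the log2 fold change was -6.70 (adjusted p = 3.06e-46, edgeR's quasi-likelihood test) in control and -7.27 (adjusted p = 1.74e-46) in CTCF-depleted cells. Leaving out 1 library gave log2 fold changes of -7.12 to -6.40 and -7.43 to -7.09. At 96 h the conditions differed by -0.57 on this scale, with a 95% interval of -1.27 to 0.13 and an adjusted p of 0.24 (edgeR), so that a difference was not detectable at this depth and a decrease of up to 1.27 on the log2 scale lies within the interval. The value was -0.15 without control replicate 1, -0.83 without control replicate 2 and -0.36 without CTCF-depleted replicate 1, none of them called.

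*DNTT* (ENSG00000107447.8; chr10:96304409-96338564, plus strand), the TdT gene, also fell steeply, yet its remaining level was somewhat higher in CTCF-depleted than in control cells. It had 6978 and 9390 counts at 0 h, and 107 and 108 in control libraries, which is 9.44 and 10.002 CPM, and the CTCF-depleted libraries held 13.1 and 13.8 CPM. The groups did not overlap, and their order differed from that of *RAG1*. Mean levels were 712 ± 10.97 CPM at 0 h, 9.72 ± 0.395 CPM in control and 13.5 ± 0.474 CPM with CTCF depletion (SD, n = 2 per group). Relative to 0 h, the log2 fold change was -6.19 in control cells and -5.72 with CTCF depletion, with adjusted p-values of 1.74e-57 and 8.08e-57 (edgeR). Leaving out 1 library gave -6.25 to -6.19 and -5.75 to -5.68. At 96 h, the log2 fold change of CTCF-depleted against control was 0.47 (standard error 0.12, 95% interval 0.23 to 0.72, adjusted p = 0.00127, edgeR), which passed the threshold on p but not that on fold change.

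Thus 3 of 3 recombinase genes were called lower at 96 h in control cells, where 22.9% of all tested genes were lower and 25.4% higher, and 3 of 3 in CTCF-depleted cells, where 25.2% were lower and 27.2% higher. Their ranks from the lowest log2 fold change among 14758 genes were 77 (*RAG1*), 64 (*RAG2*) and 86 (*DNTT*) in control cells, and 16, 48 and 123 in CTCF-depleted cells. Together they summed to 1530 and 1500 CPM at 0 h, 19.6 and 18.6 CPM in control, and 16.5 and 16.7 CPM in CTCF-depleted libraries. In CTCF-depleted libraries *DNTT* made up most of this sum.

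The balance within a pair of genes does not depend on library scaling, and that of *DNTT* and *RAG1* also differed between the conditions. *DNTT* counts made up 52.8% and 52.7% of the summed *DNTT* and *RAG1* counts at 0 h, and 53.5% (95% exact binomial interval 46.3 to 60.6) and 57.4% (50.04 to 64.6) in control libraries. In CTCF-depleted libraries they made up 84.5% (78.2 to 89.6) and 89.3% (83.6 to 93.5). The intervals of control and 0 h libraries overlapped, and those of the CTCF-depleted libraries lay above all others. *RAG1* made up 79.5% and 79.4% of *RAG1* and *RAG2* counts at 0 h, 80.9% (72.5 to 87.6) and 86.0% (77.3 to 92.3) in control, and 72.2% (54.8 to 85.8) and 58.1% (39.1 to 75.5) in CTCF-depleted libraries. The latter rest on 36 and 31 counts, and the interval of 1 of these libraries includes the value at 0 h. Both CTCF-depleted intervals overlapped that of control replicate 1, and that of CTCF-depleted replicate 2 lay below that of control replicate 2. *RAG1* makes up 73.4% of the summed transcript length of the pair, a share that lies within both CTCF-depleted intervals. An order of *RAG1* (0.309) and *RAG2* (0.445 CPM per kb) in CTCF-depleted cells was thus not resolved. Intervals cover counting error only. With 2 libraries a group, an exact permutation test of such a share cannot give a two-sided p below 0.333.

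Of the 12 B cell markers, 9 had a log2 fold change below 0 between the conditions at 96 h, 1 was called lower and 2 higher, where 7.03% and 5.41% of all tested genes were called. Their sums given above were close in the 2 conditions only with *CD22*, and the other 11 summed to 448 and 454 CPM in control and 392 and 402 CPM in CTCF-depleted libraries. The marker *VPREB1*, a surrogate light chain gene of the pre-B cell receptor, was the one called lower in CTCF-depleted than in control cells (log2 fold change -0.89, adjusted p = 1.30e-06, edgeR). The inhibitory receptor gene *CD22* (1.47, adjusted p = 3.04e-24) and *VPREB3* (1.34, adjusted p = 0.00261, edgeR), whose product binds nascent immunoglobulin chains, were higher. *VPREB3* rests on few counts, with 10 and 8 in control and 24 and 21 in CTCF-depleted libraries. Relative to 0 h, *VPREB3* (-6.47) and *MME* (-4.72) fell most among these markers in control cells, and *VPREB3* (-5.13) and the kinase gene *BLK* (-4.70) in CTCF-depleted cells. *MME* had only 1 and 2 counts in control libraries. The part of remaining B lineage RNA in the *RAG1* and *DNTT* differences was not tested.

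Across the general end joining genes, the changes were far smaller. In control cells, 4 of 7 were called lower (*NHEJ1*, *PRKDC*, *LIG4* and *XRCC6*), 1 higher (*XRCC4*), and *XRCC5* and *DCLRE1C* passed on p but not on fold change, where 22.9% of all tested genes were called lower and 25.4% higher. In CTCF-depleted cells, 3 of 7 were lower than at 0 h (*PRKDC*, *NHEJ1* and *XRCC6*) and none was called higher, where the shares of all tested genes were 25.2% and 27.2%. The median over the 7 genes relative to 0 h was, as a log2 fold change, -0.65 in control cells and -0.55 with CTCF depletion, compared to 0.02 over all tested genes in each case, whereas that of the 3 recombinase genes was -6.35 and -7.27. Their summed level was 2964 and 3086 CPM at 0 h, 1857 and 1881 CPM in control and 1607 and 1554 CPM in CTCF-depleted libraries. At 96 h, 1 of the 7 was called (lower) between the conditions, where 7.03% of all tested genes were lower, and the median was -0.26, against -0.03 over all tested genes.

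**Figure D2:**
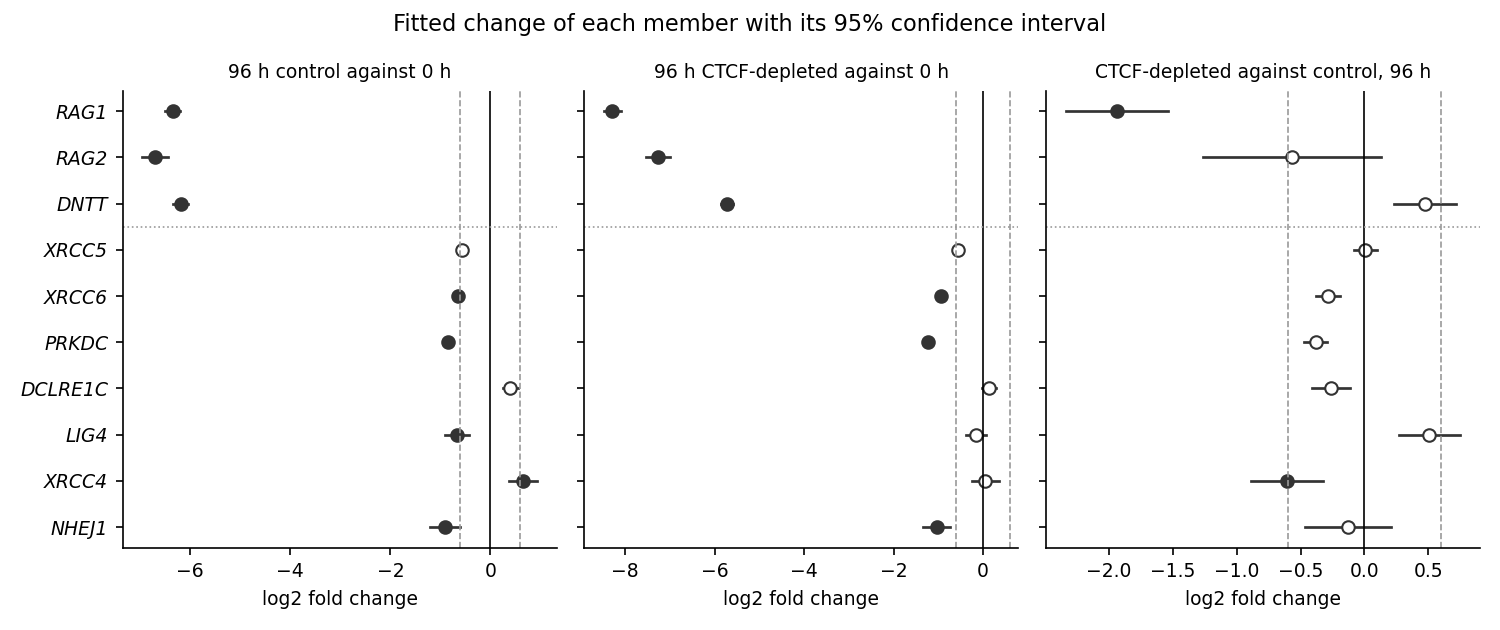
Fitted log2 fold change of each gene in the 3 comparisons, with bars for 95% confidence intervals derived from the test's F statistic. The bars of the recombinase genes relative to 0 h are too narrow. Filled points were called (adjusted p below 0.01, and beyond the dashed lines at a log2 fold change of 0.6); the recombinase genes lie between -8.29 and -5.72 relative to 0 h and the end joining genes between -1.23 and 0.65.

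The Ku subunits, which act as a dimer, changed unequally. *XRCC5* (Ku80; chr2:216107464-216206303, plus strand) had 6814 and 9785 counts at 0 h, 5464 and 5307 in control and 5366 and 5228 in CTCF-depleted libraries. Control cells had a log2 fold change of -0.56 relative to 0 h (standard error 0.05, adjusted p = 6.31e-17) and CTCF-depleted cells one of -0.55 (0.05, adjusted p = 9.41e-17). The conditions at 96 h differed by 0.01, with a 95% interval of -0.08 to 0.10, and the libraries overlapped (all from edgeR).

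*XRCC6* (Ku70; chr22:41621163-41664048, plus strand) had 4366 and 6062 counts at 0 h, 3313 and 3087 in control and 2650 and 2494 in CTCF-depleted libraries. In CPM the groups were ordered 0 h (452.5 ± 3.05), control (289 ± 4.61) and CTCF-depleted (238 ± 11.05; SD, n = 2 each), without overlap. Its log2 fold change was -0.65 (standard error 0.05, adjusted p = 5.76e-19) in control, -0.93 (0.05, adjusted p = 1.10e-25) in CTCF-depleted cells and -0.28 (0.05, adjusted p = 2.01e-06, below the threshold on fold change) between them by edgeR. Of the summed Ku counts, *XRCC5* took 60.9% and 61.7% at 0 h, 62.3% and 63.2% in control and 66.9% and 67.7% in CTCF-depleted libraries. The intervals of the latter (65.9 to 68.7) lay above those of the former 4 libraries (60.0 to 64.3). Processed pseudogenes of *XRCC6* are annotated, of which *XRCC6P5* is in the table with 0 to 20 counts per library, so that a share of its reads may be assigned to a copy.

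*PRKDC* (chr8:47773111-47960178, minus strand), which encodes the kinase DNA-PKcs, was the most abundant of the 10 by CPM in every group. It had 16437 and 23665 counts at 0 h, 10857 and 10472 in control and 8087 and 7929 in CTCF-depleted libraries. The levels of 1735 ± 56.2, 964 ± 8.19 and 740 ± 12.99 CPM (SD, n = 2 each) did not overlap. In control cells it changed by a log2 fold of -0.85 relative to 0 h (standard error 0.05, adjusted p = 3.04e-24), in CTCF-depleted cells of -1.23 (0.05, adjusted p = 1.14e-31), and of -0.38 (95% interval -0.48 to -0.29, adjusted p = 7.18e-10, edgeR) between the conditions at 96 h. The last value did not reach the threshold on fold change.

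*DCLRE1C* (chr10:14897359-14954432, minus strand), which encodes the nuclease Artemis, did not fall. It had 591 and 887 counts at 0 h, 950 and 913 in control and 776 and 745 in CTCF-depleted libraries, or 63.7 ± 3.94, 84.2 ± 0.500 and 70.2 ± 2.28 CPM (SD, n = 2 each). The control libraries were the highest and the 0 h libraries the lowest. Fitted log2 fold changes were 0.40 (standard error 0.07, adjusted p = 2.64e-06) in control, 0.14 (0.07, adjusted p = 0.0903) in CTCF-depleted cells and -0.26 (0.07, adjusted p = 0.00281, edgeR) between them, each below the threshold on fold change. *DCLRE1C* shares 159 exonic bases with *SUV39H2* on the opposite strand, whose counts fell from 664 and 932 at 0 h to 281 and 284 in control libraries. The libraries were made with a stranded kit, but the strand setting of the counting is not given in the sources used here. Without it the reads of such bases cannot be told apart.

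The genes of the ligation step were the least abundant of the 10 by CPM at 0 h and did not move together. *LIG4* (chr13:108207439-108218368, minus strand), which encodes the ligase, had 236 and 340 counts at 0 h, 164 and 184 in control and 228 and 257 in CTCF-depleted libraries. Its levels of 24.9 ± 0.818, 15.8 ± 1.81 and 22.4 ± 1.81 CPM (SD, n = 2 each) were lowest in control, without overlap. Its log2 fold change was -0.67 (standard error 0.12, adjusted p = 1.12e-06) in control, -0.16 (95% interval -0.38 to 0.07, adjusted p = 0.19) in CTCF-depleted cells, and 0.51 (0.12, adjusted p = 4.43e-04, edgeR, below the threshold on fold change) between the conditions. Without control replicate 1, the fall in control cells was -0.59 and no longer called.

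*XRCC4* (chr5:83077498-83353787, plus strand), the partner of LIG4, showed the opposite order. It had 108 and 180 counts at 0 h, 197 and 235 in control and 153 and 125 in CTCF-depleted libraries. The control libraries (17.4 and 21.8 CPM) lay above those at 0 h (11.1 and 13.5 CPM) and those with CTCF depletion (14.2 and 11.5 CPM), and the latter groups overlapped. Fitted values were log2 fold changes of 0.65 (standard error 0.14, adjusted p = 4.35e-05) in control, 0.04 (95% interval -0.26 to 0.35, adjusted p = 0.79) in CTCF-depleted cells and -0.61 (0.14, adjusted p = 3.90e-04, edgeR) between the conditions. Both calls lie next to the threshold on fold change and rest on single libraries: the rise was 0.53 without 0 h replicate 1 and 0.48 without control replicate 2, and the difference between the conditions was -0.41 (adjusted p = 0.0736, edgeR) without control replicate 2 and -0.43 without CTCF-depleted replicate 2. The latter call was lost under 12 of 16 alternatives.

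*NHEJ1* (chr2:219069355-219160869, minus strand), which encodes XLF, fell to about the same level in both conditions. It had 185 and 224 counts at 0 h, 99 and 111 in control and 94 and 94 in CTCF-depleted libraries, or 17.9 ± 1.61, 9.51 ± 1.09 and 8.68 ± 0.0314 CPM (SD, n = 2 each). The libraries at 96 h lay below those at 0 h. Compared with 0 h it changed by -0.91 on the log2 scale in control cells (standard error 0.15, adjusted p = 2.21e-07) and by -1.04 with CTCF depletion (0.15, adjusted p = 1.44e-08, edgeR). Between the conditions it was -0.13, with a 95% interval of -0.46 to 0.21 (adjusted p = 0.585, edgeR). Another annotated gene shares 2034 exonic bases with *NHEJ1* on the same strand. It was not found among the genes of the count table, and its effect on the counts of *NHEJ1* was not tested.

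Over all 10 genes, the libraries of control cells lay beyond both 0 h libraries in every case, 8 lower and 2 higher (*DCLRE1C* and *XRCC4*), compared to 42.8% and 43.9% of all tested genes. With CTCF depletion 8 were lower, *DCLRE1C* was higher and *XRCC4* overlapped, against 43.1% lower and 44.6% higher over all tested genes. Relative to control, CTCF-depleted cells had 2 of the 10 genes called lower (*RAG1* and *XRCC4*) and none higher, where 7.03% and 5.41% of all tested genes were called. Without a threshold on fold change, both CTCF-depleted libraries lay below both control libraries in 7 genes and above them in 2 (*DNTT* and *LIG4*), compared to 37.8% and 30.1% of all tested genes. For *RAG2* and *NHEJ1* the groups nearly touched: the closest libraries of control and CTCF-depleted cells stood at 1.204 and 1.198 CPM for *RAG2* and at 8.74 and 8.70 CPM for *NHEJ1*.

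Further factors that process ends before ligation mostly did not pass the thresholds. Of 14 accessory factors of end joining, *DCLRE1B* (Apollo, a nuclease that protects telomere ends) was the only gene called in control cells, at -1.51 (adjusted p = 4.99e-17, edgeR). Over all tested genes, 22.9% were lower and 25.4% higher in this comparison. *DCLRE1B* was also lower in CTCF-depleted cells (-1.38). There 1 of the 14 was lower and 1 higher than at 0 h, against 25.2% and 27.2% of all tested genes. *APLF*, a histone chaperone that binds Ku, was higher in CTCF-depleted cells than at 0 h (0.99) and than in control (0.71, adjusted p = 1.60e-05). *POLM*, a polymerase of the same family as TdT that fills gaps during joining, was also higher in CTCF-depleted than in control cells (0.74, adjusted p = 4.56e-09), at 36.01 against 21.5 CPM, and *PARP3* was lower (-0.63, adjusted p = 0.0093, edgeR). Between the conditions, 1 of the 14 was called lower and 2 higher, against 7.03% and 5.41% of all tested genes. The medians of the list were -0.10 and -0.19 relative to 0 h and -0.07 between the conditions, against 0.02, 0.02 and -0.03 over all tested genes.

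Of 14 genes of break signaling and end protection, 13 were tested, and their called shares lay near those of all tested genes for lower genes. In control cells 3 were lower, led by the shieldin subunit gene *MAD2L2* (-1.52) and the histone gene *H2AFX* (-1.29), and 1 was higher, the kinase gene *ATM* (0.80, adjusted p = 2.38e-21, edgeR), against 22.9% and 25.4% of all tested genes. In CTCF-depleted cells 4 were lower, again led by *MAD2L2* (-1.80) and *H2AFX* (-1.75), and *ATM* was higher (1.03), against 25.2% and 27.2% of all tested genes. Between the conditions at 96 h, edgeR called none of the 13, where 7.03% of all tested genes were lower and 5.41% higher. The log2 fold changes of the 13 lay between -0.49 and 0.59. The medians were -0.17 and -0.26 relative to 0 h and -0.09 between the conditions.

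Many but not all genes of other repair pathways were called lower. Of 8 genes of alternative end joining, 5 were lower in control and 6 in CTCF-depleted cells than at 0 h, with medians of -0.86 and -1.41, where 22.9% and 25.2% of all tested genes were lower. The flap endonuclease gene *FEN1* (-1.54 and -1.92), the resection factor gene *RBBP8* (-1.41 in control) and *PARP2* (-1.56 in CTCF-depleted cells) led these falls. Between the conditions 3 of 8 were lower with CTCF depletion (7.03% of all tested genes), with a median of -0.30 over the list, among them *POLQ*, the polymerase that gives the pathway its other name (-0.75, adjusted p = 3.91e-15, edgeR), and *LIG1* (-0.69, adjusted p = 5.33e-12).

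Homologous recombination, which uses the sister chromatid, was represented by 16 genes. Of these, 10 were lower in control and 13 in CTCF-depleted cells relative to 0 h, and none was called higher, where 22.9% and 25.2% of all tested genes were lower and 25.4% and 27.2% higher. *RAD52* lay above 0 in control cells (0.35). The nuclease genes *EXO1* (-1.81 and -2.58) and *DNA2* (-1.54 and -2.19) fell most. Relative to control, CTCF-depleted cells had 6 genes lower, led by *EXO1* (-0.78) and *RAD54L* (-0.72), and 1 higher, where 7.03% and 5.41% of all tested genes were called. The medians were -0.82 and -1.23 relative to 0 h and -0.43 between the conditions.

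Genes of S phase moved with these lists. Of 15 such genes, 14 were lower in control and 15 in CTCF-depleted cells than at 0 h, and 5 were lower in CTCF-depleted than in control cells, with medians of -1.31, -1.85 and -0.56. Over all tested genes, 22.9%, 25.2% and 7.03% were lower. *UHRF1*, which maintains DNA methylation at replication, stood at -2.38, -3.38 and -1.002 in the 3 comparisons. On the log2 scale, *GINS2* fell by 2.14 and 2.85 relative to 0 h, and the log2 fold change of *CDC45* between the conditions was -0.88. Their summed level was 4104 and 3930 CPM at 0 h, 1540 and 1512 CPM in control and 1046 and 1028 CPM in CTCF-depleted libraries, in the same order as *PRKDC* and *XRCC6*. The part of proliferation in the changes of the repair genes was not tested.

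Regulators and partners of the RAG proteins were examined next. Of 20 regulators of *RAG* transcription, 18 passed the filter (*PAX5* and *EBF1* are also among the B cell markers), and 7 were lower and 6 higher in control cells than at 0 h, against 22.9% and 25.4% of all tested genes. The lymphoid factor genes *LEF1* (1013 to 109 CPM, log2 fold change -3.22) and *PAX5* (-3.12) fell most. *ID2*, an inhibitor of E proteins (3.16 to 153 CPM, 5.63), and *SPI1*, which encodes the myeloid factor PU.1 (2.90), rose most. In CTCF-depleted cells 8 were lower and 6 higher than at 0 h, against 25.2% and 27.2% of all tested genes. The values there were -3.38 for *LEF1*, -3.22 for *PAX5*, 5.87 for *ID2* and 2.64 for *SPI1*. The medians of -0.15 and -0.24 combine changes in both directions.

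Of the 18 regulators, 1 was called between the conditions at 96 h, where 7.03% of all tested genes were lower and 5.41% higher. This was *ID3*, another inhibitor of E proteins, which was lower with CTCF depletion. It had 834 and 726 counts in control and 332 and 428 in CTCF-depleted libraries, or -1.01 on the log2 scale (standard error 0.09, adjusted p = 1.91e-14, edgeR). Among 7 cofactors and partners of the RAG proteins, *HMGB1*, a DNA-bending protein that assists RAG cutting, was lower in control (-1.20) and CTCF-depleted cells (-1.41) than at 0 h. *DDB1*, an adaptor of the ubiquitin ligase that turns over RAG1 protein, was called lower than at 0 h in CTCF-depleted cells (-0.66) and not in control cells (-0.39), and the difference between them (-0.26) was not called. *HMGB2* was lower in CTCF-depleted than in control cells, at 334 against 567 CPM (-0.77, adjusted p = 1.44e-20, edgeR). The medians of the cofactors were -0.19 and -0.43 relative to 0 h and -0.18 between the conditions.

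Of the neighbors of the recombinase genes on the chromosome, *BLNK* was the only one with a fall of similar size. Of 4 tested genes lying within 500 kb of *RAG1* and *RAG2*, *PRR5L* was lower in control cells than at 0 h (-1.18), and *TRAF6* (0.08) and *COMMD9* (0.38) were not called. *C11orf74*, which shares 372 exonic bases with *RAG2* on the opposite strand, had 0 and 7 counts at 0 h, 35 and 23 in control and 22 and 14 in CTCF-depleted libraries, or 3.07 on the log2 scale (adjusted p = 1.73e-06, edgeR) in control cells relative to 0 h. *RAG1* and *RAG2* themselves share 588 exonic bases on opposite strands. Without the strand setting of the counting, the reads of bases shared by these genes cannot be told apart. This bears on the low counts of *RAG2* at 96 h and on the shares of *RAG1* and *RAG2*. Between the conditions at 96 h, edgeR called none of these 4 neighbors, with *PRR5L* at -0.13, *TRAF6* at 0.09, *COMMD9* at 0.16 and *C11orf74* at -0.65 (adjusted p = 0.194), so that *RAG1* was the only tested gene called in this interval. Of all tested genes, 7.03% were called lower and 5.41% higher.

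Around *DNTT*, 6 of 11 listed genes were tested. The neighbor whose start lies closest, *BLNK*, encodes an adaptor of the pre-B cell receptor and fell with *DNTT*, from 935 and 1311 counts at 0 h to 29 and 17 in control and 20 and 19 in CTCF-depleted libraries. On the log2 scale it changed by -5.54 in control cells, by -5.75 with CTCF depletion and by -0.21 (standard error 0.29, adjusted p = 0.643, edgeR) between them. *CCNJ* (-1.61) and the adaptor gene *PIK3AP1* (-0.81) were also lower in control cells, whereas *ZNF518A* (-0.18), *TM9SF3* (0.29) and the ribosomal protein pseudogene *RPL13AP5* were not called. At 96 h, *CCNJ* was higher in CTCF-depleted than in control cells by 0.37 (adjusted p = 8.15e-04, edgeR), below the threshold on fold change. None of the 6 was called, where 7.03% of all tested genes were lower and 5.41% higher.

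**Figure D3:**
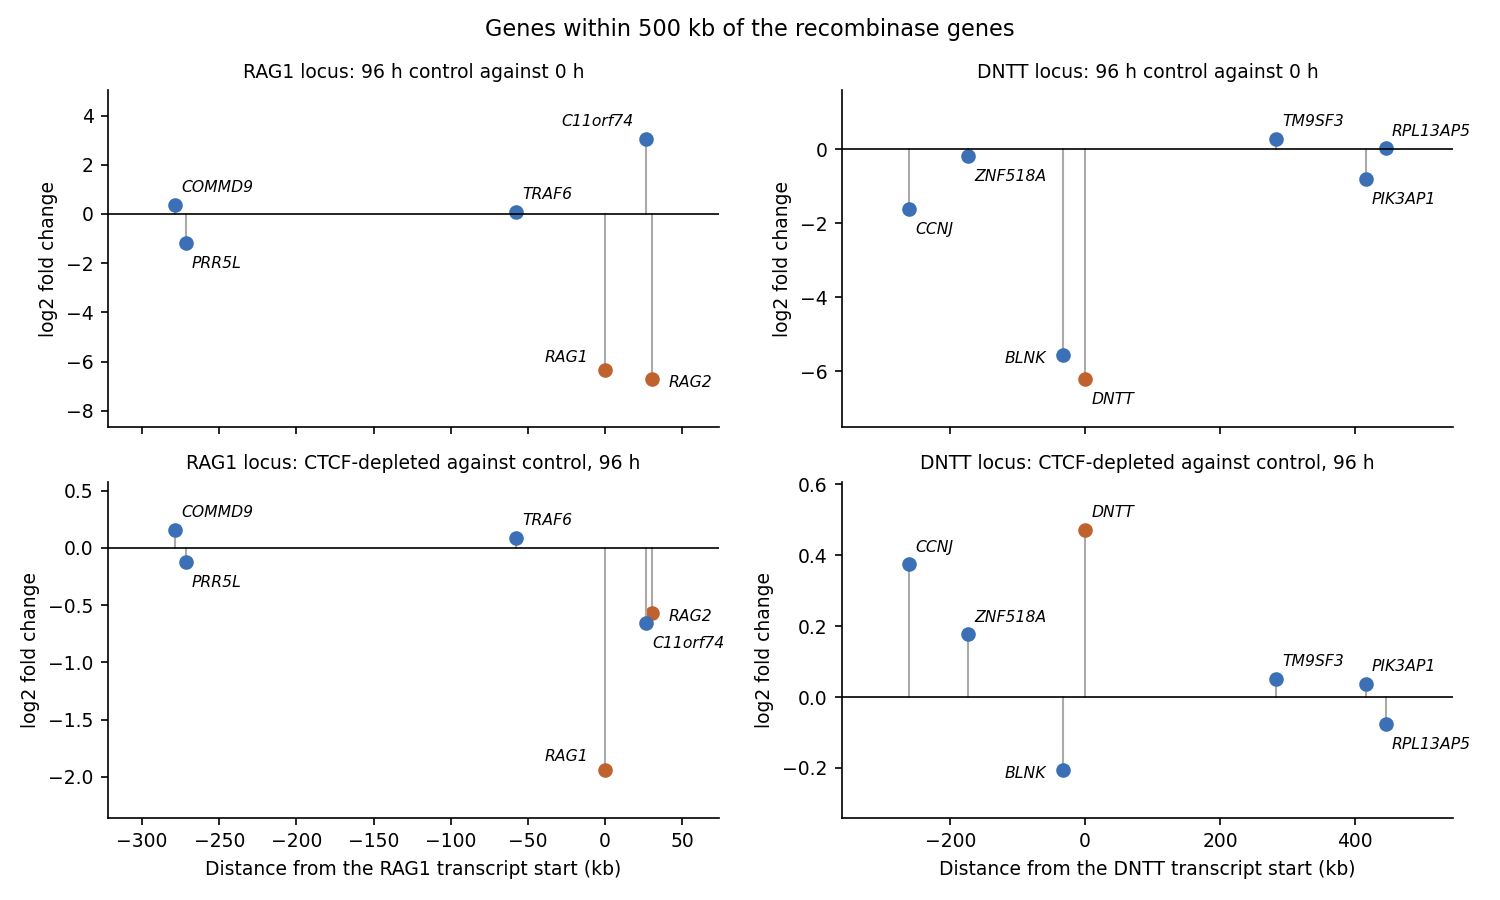
Log2 fold change of the tested genes within 500 kb, plotted by the distance of their start from that of *RAG1* (left) or *DNTT* (right) in kb, for control against 0 h (top) and CTCF-depleted against control at 96 h (bottom). Orange points are recombinase genes and blue points their neighbors; at the *RAG* genes only *RAG1* (-1.94) lies below -1 in the lower panel, and the vertical scales differ between panels.

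The genes whose pair of log2 fold changes relative to 0 h lay closest to each recombinase gene, by Euclidean distance over the 14758 genes and 6 libraries, were mostly of low abundance. For *RAG1* these were *KCNMB3* (distance 0.29), *ADCY5* (0.40) and *LOC101929387* (0.47), each with at most 1 count in any library at 96 h. For *RAG2* they were *LINC00951* (0.40), *HOXA2* (0.41) and *HOXA6* (0.43), also with at most 1 count, and for *DNTT* they were *MT1G* (0.06), the lymphoid kinase gene *LCK* (0.31) and *FCRLA* (0.31), with 0 to 4 counts. Fitted values at such counts depend on the prior count, whereas *RAG1* and *DNTT* kept 18 to 150 counts per library at 96 h.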

How the data were processed

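RNA-seq was performed on 6 libraries of total RNA. The count values are those the authors deposited: reads were aligned to hg38 with STAR (version 2.6.1d) and counted over protein-coding exons with featureCounts (version 2.0.6), per the methods and the labels, without normalization. Per the methods, the libraries were made with a stranded kit. The annotation release and the strand setting of the counting are not given in the sources used here. The deposited table lists genes by symbol and also holds non-coding genes and pseudogenes with counts, which differs from the stated restriction to protein-coding exons. The methods name no molecular identifiers for these libraries. Intervals on shares treat each count as independent and do not cover differences between replicates.

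From these counts, edgeR (version 4.0.16, in R 4.3.3) was used with filterByExpr, TMM scaling and a quasi-likelihood model of all 6 libraries with condition as its term, and p-values were adjusted over the 14758 genes kept with the Benjamini-Hochberg method. The thresholds are those of the study. The common biological coefficient of variation was 3.96% and the prior degrees of freedom were 51.7. In each group, replicate counts differed by more than sampling noise (chi-square per degree of freedom 2.80, 1.95 and 1.75), and replicates were used as separate samples. CPM per kb uses the length of the canonical transcript. On simulated data for the comparison of the conditions at 96 h, over 14758 genes, edgeR recovered 100 of 100 genes changed by 1 on the log2 scale and 100 of 100 changed by 2, DESeq2 (version 1.42.0) 98 and 100, each with 0 false calls. The changed genes were drawn from those with a mean above 100 counts, which was the same in all groups before the change. Recovery at the lower counts of *RAG1* and *RAG2* at 96 h was not tested.

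Positions and transcripts are from GENCODE release 44, and all 10 genes were matched. Start windows were read from hg38, and background windows and gene synonyms are from RefSeq. The alternatives were DESeq2, RLE scaling, a fit without the filter or with at least 10 counts in every library, fits of 4 libraries at a time, a block for replicate number, 2 other thresholds, glmTreat, each library left out in turn and, chosen after seeing the data, scaling by library totals.

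The 10 genes, the lists and the tests were chosen with earlier results of these data known. Besides the 10 genes, the text names, from each list and comparison, up to 2 genes with the largest called rise and up to 2 with the largest called fall, the tested genes whose body lies within 500 kb of *RAG1*, *RAG2* or *DNTT*, and for each of these the 3 tested genes nearest in the pair of log2 fold changes relative to 0 h. The start window of *RAG1* and 1 called gene of the homologous recombination list are not reported here. Genes named for a shared exon, a pseudogene or the filter were added. *SHLD3*, of the list of break signaling and end protection, was not analysed here. Summaries used pandas 2.3.3, scipy 1.17.1 and numpy 2.4.6 (Python 3.11.15).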

Additional observations from a re-analysis of the deposited data

Results flagged for a closer look

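For 2 of the 10 genes, the change from 0 h differed between CTCF-depleted and control cells past both thresholds, on adjusted p and on fold change, in the test of the difference itself, which here is the comparison of the conditions at 96 h. Over all tested genes, 7.03% were lower and 5.41% higher by this rule. By an adjusted p below 0.01 alone (edgeR), 7 of the 10 differed, 5 lower and 2 higher, against 17.4% and 12.0% of all tested genes. For *RAG1* the difference was -1.94 on the log2 scale (adjusted p = 6.18e-12, edgeR), with log2 fold changes relative to 0 h of -8.29 in CTCF-depleted and -6.35 in control cells. For *XRCC4* it was -0.61 (adjusted p = 3.90e-04, edgeR), with log2 fold changes relative to 0 h of 0.04 and 0.65, but this call was lost under 12 of 16 alternatives, with -0.41 (adjusted p = 0.0736, edgeR) without control replicate 2. Both conditions are compared with the same 0 h libraries. Groups of 2 libraries were too small for a check of outlying samples.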

How the results depend on the processing

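Of 480 recomputed log2 fold changes (30 values under 16 alternatives), 438 kept their direction and their side of the thresholds, 26 lost a call, 12 gained one and 4 changed sign. No recombinase gene lost a call. *XRCC4* in CTCF-depleted cells relative to 0 h (0.04) turned to -0.05 without 0 h replicate 1, -0.11 without CTCF-depleted replicate 1 and -0.039 with scaling by library totals, and leaving out 1 library gave up to 0.22. *NHEJ1* between the conditions (-0.13) turned to 0.021 without control replicate 2, and leaving out 1 library gave down to -0.21. These 4 values were not called in any of these fits.

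Of the 10 genes, 7 were lower in control cells than at 0 h, 3 with a log2 fold change threshold of 1 and 4 with glmTreat. The 1 higher gene (*XRCC4*) became 2 when only an adjusted p below 0.05 was required and 0 with a threshold of 1, glmTreat or library totals, and leaving out 1 library gave 0 to 1. The 2 genes lower in CTCF-depleted than in control cells became 1 (*RAG1*) with DESeq2, RLE, no filter, at least 10 counts in every library, only the 4 libraries compared, a threshold of 1, glmTreat or library totals, 5 by p alone at 0.05, and 1 to 2 when 1 library was left out. The 0 higher genes became 2 by p alone at 0.05 and 0 to 1 when 1 library was left out (*LIG4*, 0.66 without control replicate 2 and 0.63 without CTCF-depleted replicate 1). Counts relative to 0 h in CTCF-depleted cells stayed at 5 to 7 lower and 0 higher.

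Differences between replicates 1 and 2 showed little correlation between groups (-0.0194, 0.0109 and -0.0294). This cannot show whether replicates were grown or processed as pairs. With the replicate block the counts were 7 and 1, 6 and 0, and 2 and 0, as without it, and over all genes 3360 and 3730, 3715 and 4007, and 1033 and 785 lower and higher.

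Over all genes, 1038 were lower and 798 higher between the conditions, and these were 3330 and 2375 by p alone at 0.05, 436 and 409 with a threshold of 1, and 344 and 298 with glmTreat. Relative to 0 h, 3376 lower genes in control cells became 5500, 2075 and 2384, and 3726 in CTCF-depleted cells became 5658, 2513 and 2849. Scaling by library totals moved the median log2 fold change of control cells relative to 0 h from 0.02 to -0.10, under which *XRCC5* was called lower in both conditions (-0.68 and -0.64). At 96 h, depth limits *RAG2*, with 10 to 22 counts per library, more than the other genes.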
